A study of Mus musculus with 6 samples.

Results

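The FOXA and HNF4 genes *Foxa1*, *Foxa2*, *Foxa3*, *Hnf4a* and *Hnf4g* encode transcription factors of the endoderm, the germ layer that forms the lining of the gut. These 5 genes were taken by symbol from the 23366 genes of the deposited counts, and all 5 passed the filter on low counts and were tested. RNA was sequenced from the epithelium of the small intestine of E13.5 mice, with 3 libraries of genotype Shh-cre-egfp:Tcf7l1 lox/lox, referred to as mutant, and 3 of wild type embryos. Each library was made from 500 cells sorted for EpCAM, which marks the surface of epithelia, and no library was treated. In the mutants, Cre recombinase is made from the *Shh* locus, which is active in the gut epithelium, and removes exon 6 of both floxed *Tcf7l1* alleles. *Tcf7l1* encodes a repressor of WNT target genes. No library is labelled as Cre with intact *Tcf7l1*, so that Cre, the altered *Shh* locus and the loss of *Tcf7l1* cannot be told apart. The labels call the libraries biological replicates. The number of embryos behind each library is not given in the sources used here.

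FOXA proteins are winged helix factors that open closed chromatin, and they act early in the making of endoderm, liver, pancreas and lung. In the gut, *Foxa1* and *Foxa2* are known for their part in goblet cells and in the enteroendocrine cells that make somatostatin and glucagon-like peptides, whereas *Foxa3* is best known from liver and from goblet cell formation. HNF4A and its relative HNF4G are nuclear receptors that bind direct repeats and drive genes of lipid transport and the brush border in enterocytes, the absorptive cells.

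The libraries held 18216537 to 20397278 counts each, and values of single libraries are given in the order of replicates 1, 2 and 3. *Tcf7l1* itself had 476, 474 and 364 normalized counts in the wild types and 41.4, 33.0 and 73.0 in the mutants, counted over the whole gene and not exon 6 alone. *Epcam*, which encodes the protein used for sorting, had 47961 to 57036 normalized counts in the wild types and 60360 to 64100 in the mutants, and all 8 epithelial markers passed the filter. Of these, 3 were called lower (*Cdh1*, *Krt18* and *Cdx2*) and 0 higher. *Xist*, made by the silenced X, had 0 counts in every wild type library and 237 to 452 normalized counts in the mutants. Summed over 4 genes of the Y chromosome (*Ddx3y*, *Kdm5d*, *Uty* and *Eif2s3y*), there were at least 4952 counts in each wild type library and 0 in the mutants. Sex and genotype therefore cannot be told apart here. The 5 genes described all lie on autosomes.

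The question put to these libraries was how the endoderm factors change when *Tcf7l1* is lost from the embryonic intestinal epithelium. *Foxa2* fell to 13.0% of its wild type level. *Foxa1* and *Foxa3* were lower in every mutant library by about the same, smaller factor, and did not meet all criteria of a call. *Hnf4a* overlapped between the groups, and *Hnf4g* was slightly higher in every mutant library without being called. The log2 fold change of mutant over wild type is given as log2 change, with its standard error (SE). A gene was called when it had a p under 0.01 in the quasi-likelihood model of edgeR after Benjamini-Hochberg adjustment over 12501 tested genes, a log2 change of 0.5 or more in size, and a mean of 50 or more normalized counts. Of the 5 genes, 1 was called lower and 0 higher, where 5.83% of all tested genes were called lower, 2.78% higher and 8.62% in either direction. For 4 of the 5 every mutant library lay on the same side of every wild type library, which held for 43.0% of all tested genes. For 3 of the 5 the mutants were the lower ones, which held for 22.2%. The adjusted p alone was under 0.05 for 4 of the 5 and for 28.7% of all tested genes.

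**Figure D1:**
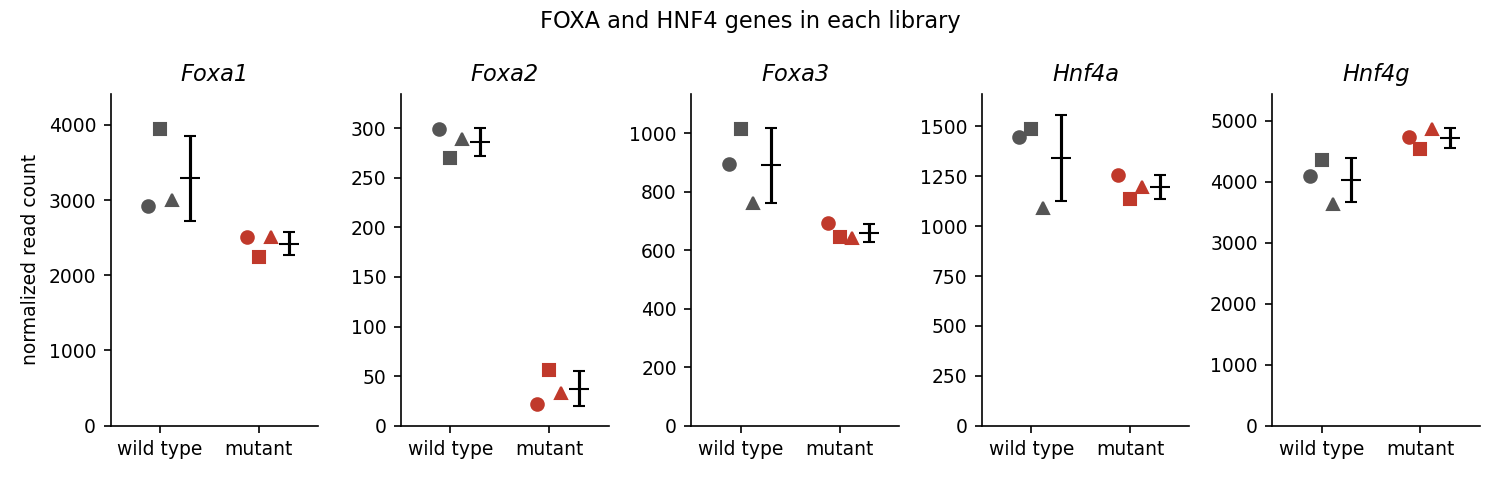
Normalized read counts (y axis, from 0, a scale for each gene) of the 5 genes in the 3 wild type (grey) and 3 mutant (red) libraries, with circles, squares and triangles for replicates 1, 2 and 3 and bars for mean ± SD. For *Foxa2* all wild type points lie above 270 and all mutant points below 57, and for *Hnf4a* the groups overlap.

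*Foxa2* (ENSMUSG00000037025) maps to chromosome 2 (147868613 to 147872705 of mm9, minus strand). It had 299, 270.4 and 289 normalized counts in the wild types, and 21.7, 56.4 and 33.2 in the mutants. The wild type libraries lay within a narrow range, mutant 2 was the highest of the mutants, and the groups were far apart. The mean fell from 286 ± 14.6 to 37.1 ± 17.7 (SD, n = 3; log2 change -2.94, SE 0.29, edgeR adjusted p = 3.0e-06). The mutant values rest on 21, 53 and 30 raw counts. Of the 12501 tested genes, 87 had a lower log2 change than *Foxa2*. In bulk libraries, fewer cells that express a gene and less RNA in each cell cannot be told apart.

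Promoter sequences of the FOXA genes are shown because these are the genes that were lower together in the mutants. RefSeq gives 1 such window for *Foxa1*, 3 for *Foxa2*, 1 for *Foxa3* and 2 for *Hnf4a*, taken from GRCm38.p6, and each matched 1 place in mm9 exactly, whose coordinates are given. Capitals mark letters of a FOXA word, TGTTTAC or TATTTAC, or of a TCF word, CTTTGAT or CTTTGAA, on either strand.
Foxa2, 250 bases upstream of the outermost start, chr2:147872706-147872955, minus strand: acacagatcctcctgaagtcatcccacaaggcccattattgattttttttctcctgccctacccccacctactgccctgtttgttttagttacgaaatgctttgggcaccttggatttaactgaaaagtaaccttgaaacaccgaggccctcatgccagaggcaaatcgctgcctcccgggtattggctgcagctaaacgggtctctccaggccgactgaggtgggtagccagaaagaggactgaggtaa
Foxa2, 250 bases upstream and 50 downstream of an internal start, chr2:147871151-147871450, minus strand: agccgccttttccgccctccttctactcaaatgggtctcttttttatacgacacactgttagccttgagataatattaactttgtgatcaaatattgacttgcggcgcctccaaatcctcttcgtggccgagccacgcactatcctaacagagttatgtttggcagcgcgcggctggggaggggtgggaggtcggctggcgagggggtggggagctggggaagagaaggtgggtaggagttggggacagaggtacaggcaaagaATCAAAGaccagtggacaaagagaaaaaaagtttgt
Foxa1, 250 bases upstream of the start, chr12:58647099-58647348, minus strand: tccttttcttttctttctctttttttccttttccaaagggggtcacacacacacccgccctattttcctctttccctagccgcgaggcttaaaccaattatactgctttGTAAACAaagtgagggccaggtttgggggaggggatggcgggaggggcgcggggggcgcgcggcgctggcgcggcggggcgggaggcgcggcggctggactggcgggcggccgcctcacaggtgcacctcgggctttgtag
Foxa3, 250 bases upstream of the start, chr7:19608889-19609138, minus strand: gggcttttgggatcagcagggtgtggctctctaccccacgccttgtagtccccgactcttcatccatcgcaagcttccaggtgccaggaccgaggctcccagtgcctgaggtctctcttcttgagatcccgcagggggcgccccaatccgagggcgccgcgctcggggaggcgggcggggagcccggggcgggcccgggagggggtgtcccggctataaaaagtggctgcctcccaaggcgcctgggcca

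Over the whole windows of 300 bases, the *Foxa1* window held 1 FOXA word, on the opposite strand, whose first base lies 141 bases before the start. The internal start of *Foxa2*, at 147871200, is that of an annotated noncoding transcript and lies in an intron of the coding transcripts. Its window held 1 TCF word, on the opposite strand, which begins at base 15 after the start. The other *Foxa2* windows, the *Foxa3* window and both *Hnf4a* windows held neither word, and none of the 7 windows held the HNF4 word CAAAGTCCA. Of 32851 RefSeq windows of the same length, 6.54% held a FOXA word, 8.65% a TCF word and 0.475% the HNF4 word. The letters CAAAG are shared by the TCF words, read on the opposite strand, and the HNF4 word. As none of the 7 windows held the HNF4 word, matches of both could not overlap here. A match in these letters is a description and not a binding site.

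*Foxa1* (ENSMUSG00000035451; chromosome 12, 58641618 to 58647108 of mm9, minus strand) had 2922, 3945 and 3001 normalized counts in the wild types and 2504, 2243 and 2509 in the mutants. Wild type 2 stood above all others, and the lowest wild type library lay above the highest mutant library. The mean was 3289.6 ± 569 in the wild types and 2418 ± 152 in the mutants (SD, n = 3; log2 change -0.44, SE 0.10, edgeR adjusted p = 0.0052). The adjusted p was past 0.01 but the log2 change was under 0.5 in size, so *Foxa1* was not called. It was called lower without wild type 1, at a log2 change of -0.52, and without wild type 2 the log2 change was -0.29 (edgeR adjusted p = 0.0309).

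*Foxa3* (ENSMUSG00000040891; chromosome 7, 19598631 to 19608887 of mm9, minus strand) had 896, 1014 and 760.3 normalized counts in the wild types and 695, 644 and 640.5 in the mutants. All mutant libraries lay below all wild type libraries, and the mutants were closer to each other than the wild types were. The mean was 890.1 ± 127 in the wild types and 659.8 ± 30.3 in the mutants (SD, n = 3; log2 change -0.43, SE 0.12, edgeR adjusted p = 0.0174). *Foxa3* was not called. Without wild type 3 it was called lower, at a log2 change of -0.52 (edgeR adjusted p = 0.0038), and without wild type 2 the adjusted p was 0.102. With library size as the only scaling, which moved the median of all tested genes by -0.107, *Foxa1* (-0.55) and *Foxa3* (-0.54) were both called. Relative to the median gene, their log2 changes were -0.40 and -0.39 under that scaling and also -0.40 and -0.39 under the scaling used here.

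*Hnf4a* (ENSMUSG00000017950; chromosome 2, 163332544 to 163398646 of mm9, plus strand) had 1447, 1487 and 1092 normalized counts in the wild types and 1258, 1136 and 1195 in the mutants. Wild type 3 lay below every mutant library, and the other wild types lay above them. The mean was 1342 ± 217 in the wild types and 1196 ± 60.9 in the mutants (SD, n = 3; log2 change -0.17, SE 0.12, edgeR adjusted p = 0.307), with a 95% interval of the log2 change from -0.41 to 0.08. A fall of the size of that of *Foxa2* lies far outside this interval. Without wild type 3 the log2 change was -0.28 (edgeR adjusted p = 0.0299). Counts were summed over the gene, so transcripts from its upstream and downstream promoters cannot be told apart.

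*Hnf4g* (ENSMUSG00000017688; chromosome 3, 3508030 to 3659775 of mm9, plus strand) had 4097, 4356 and 3639 normalized counts in the wild types and 4729.9, 4534 and 4859.5 in the mutants. Every mutant library lay above every wild type library, by a small margin between mutant 2 and wild type 2. The mean was 4031 ± 363 in the wild types and 4708 ± 164 in the mutants (SD, n = 3; log2 change 0.22, SE 0.08, edgeR adjusted p = 0.041), with a 95% interval from 0.06 to 0.39. It was not called under any alternative tried, where its log2 change lay between 0.12 and 0.34.

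**Figure D2:**
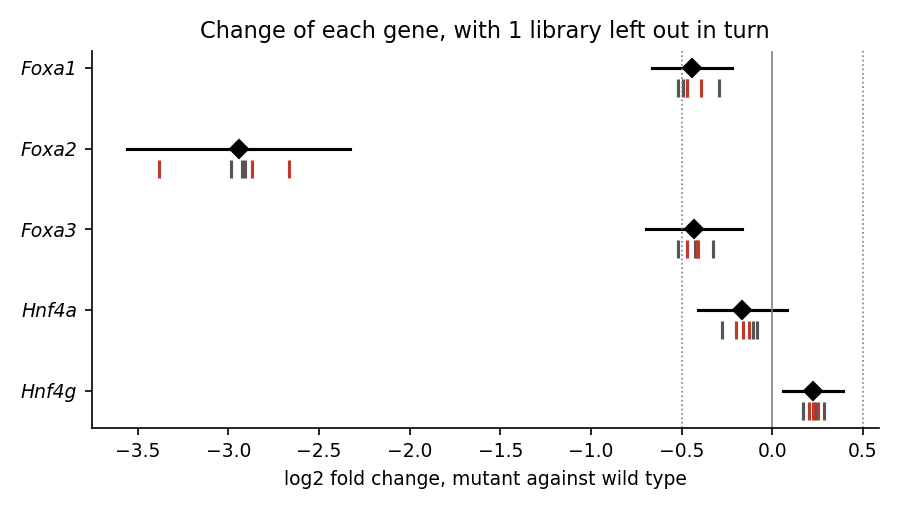
Log2 fold change of the mutant against the wild type libraries (x axis) for each gene (y axis), with diamonds for the fit of all 6 libraries, horizontal lines for its 95% interval, and ticks for fits without 1 wild type (grey) or 1 mutant (red) library. The *Foxa2* ticks lie between -3.38 and -2.67, those of *Foxa1* and *Foxa3* straddle the dotted line at -0.5, and those of *Hnf4g* lie above 0.

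Levels were compared between genes per length, as RPKM, that is normalized counts scaled to exon length and to the mean effective library size. Lengths came from an mm9 annotation. In wild type libraries the RPKM was 52.9 ± 9.15 for *Foxa1*, 47.4 ± 4.27 for *Hnf4g*, 22.4 ± 3.19 for *Foxa3*, 13.7 ± 2.22 for *Hnf4a* and 6.19 ± 0.316 for *Foxa2* (mean ± SD, n = 3). *Foxa1* and *Hnf4g* did not differ beyond their spread, whereas the ranges of the next neighbours in this order did not overlap. These levels placed *Foxa1* at percentile 86.2, *Hnf4g* at 84.8, *Foxa3* at 72.9, *Hnf4a* at 64.2 and *Foxa2* at 48.9 of the 11874 tested genes with a length. In mutant libraries *Hnf4g* came first, with an RPKM of 55.4 ± 1.93. It was followed by *Foxa1* with 38.9 ± 2.45, *Foxa3* with 16.6 ± 0.762, *Hnf4a* with 12.2 ± 0.622 and *Foxa2* with 0.803 ± 0.382, and no neighbours in that order overlapped.

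**Figure D3:**
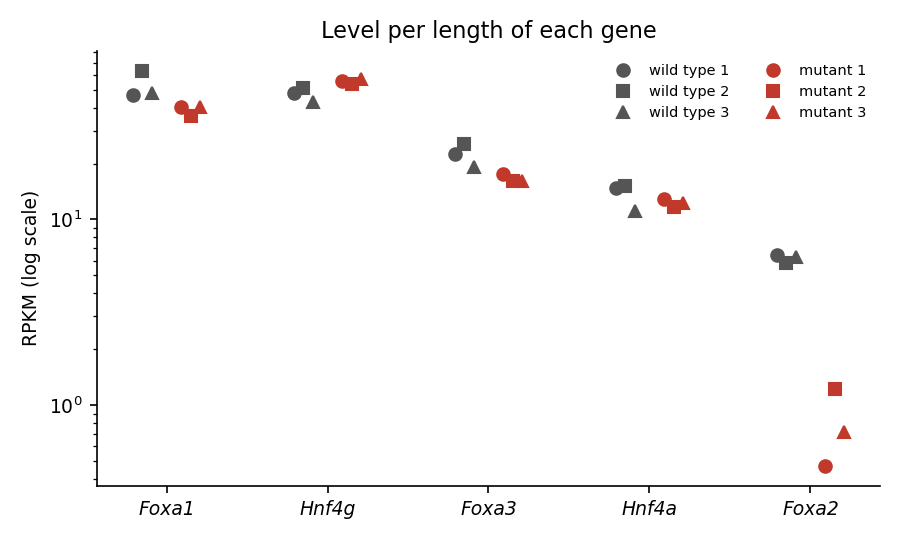
Level per length (y axis, RPKM on a log scale) of the 5 genes in each wild type (grey) and mutant (red) library, ordered by the wild type mean. *Foxa1* and *Hnf4g* lie together near 50 in wild type, and the mutant libraries of *Foxa2* lie near or below 1.

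The 3 FOXA genes summed to an RPKM of 75.9, 94.7 and 73.6 in the wild types and 58.2, 53.5 and 57.1 in the mutants. All mutant libraries lay below all wild type libraries. The summed level in the mutants was 69.1% of that in wild type (exact two-sided permutation p = 0.1 over 3 against 3 libraries, the smallest that this design allows). *Foxa2* made up 8.52%, 6.17% and 8.49% of the FOXA sum in the wild types, and 0.808%, 2.28% and 1.26% in the mutants. Thus *Foxa1* and *Foxa3* carried most of the FOXA sum in both groups, and most of its difference. The 2 HNF4 genes summed to 63.0, 66.4 and 54.0 in the wild types and 68.5, 65.0 and 69.4 in the mutants, which overlapped (exact two-sided permutation p = 0.2 over 3 against 3 libraries). *Hnf4g* made up 76.6% to 79.3% of the HNF4 sum in the wild types and 81.3% to 82.4% in the mutants.

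**Figure D4:**
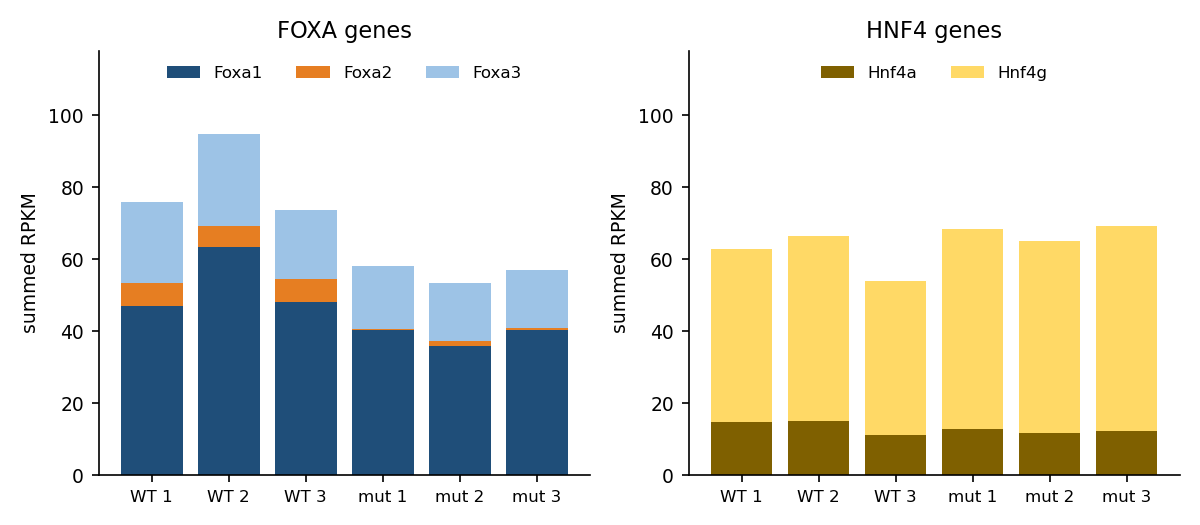
Summed RPKM (y axis, from 0) of the FOXA genes (left) and the HNF4 genes (right) in each library (WT, wild type, and mut, mutant), with a colour for each gene. The FOXA bars are lower in all 3 mutant libraries, and the HNF4 bars overlap between the groups.

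The genes of a family were next compared with each other within each library, as the log2 ratio of their counts, which does not depend on how the libraries are scaled. Over the 5 ratios tested, p-values were exact two-sided permutation p-values over 3 against 3 libraries and were adjusted by the Benjamini-Hochberg method. The ratio of *Foxa2* to *Foxa1* was -3.29, -3.86 and -3.37 in the wild types and -6.81, -5.30 and -6.22 in the mutants, a difference of -2.60 (exact permutation p = 0.1, adjusted 0.125). The ratio of *Foxa2* to *Foxa3* differed by -2.61 and that of *Foxa2* to *Hnf4a* by -2.88, with the same p-values and no overlap between groups. By contrast, the ratio of *Foxa1* to *Foxa3* was 1.88 ± 0.153 in the wild types and 1.87 ± 0.0875 in the mutants (SD, n = 3), a difference of -0.01 (exact permutation p = 0.9, adjusted 0.9), and its sign changed when single libraries were left out. The ratio of *Hnf4a* to *Hnf4g* was -1.60 ± 0.124 in the wild types and -1.98 ± 0.0592 in the mutants (SD, n = 3), and each mutant library lay below each wild type library (difference -0.38, exact permutation p = 0.1, adjusted 0.125).

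The FOXA proteins share their DNA binding domain, and so do the HNF4 proteins. At the level of transcripts, the longest alignment of *Foxa2* with *Foxa3* spanned 302 bases at 85.1% identity, and that of *Hnf4a* with *Hnf4g* 969 bases at 73.4%. None of the 5 genes had a near-identical copy among annotated coding transcripts, at 95% identity over 50% of the transcript, and none shared exon bases with a neighbouring gene on either strand.

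A list of 20 genes that FOXA factors are known to bind or activate was written from general knowledge of gut, liver, pancreas and lung. Of these, 11 passed the filter and were tested, 3 were called lower, 0 were called higher and 8 were not called. The median log2 change of the 11 was -1.28, against -0.04 over all tested genes, and 9 of the 11 were below 0, against 6787 of 12501. This median depended on genes of low count. With a filter at a mean count of 50, 7 of the list were tested and their median was -0.29, against -0.03 over all tested genes. *Agr2*, a protein folding enzyme of mucus-secreting cells, had 851, 820.4 and 1029 normalized counts in the wild types and 193, 225 and 142 in the mutants (log2 change -2.27, SE 0.17, edgeR adjusted p = 1.4e-07). *Pdx1*, a homeobox factor of duodenum and pancreas, had 216, 220.0 and 191 in the wild types and 46.6, 42.6 and 57.5 in the mutants (log2 change -2.09, edgeR adjusted p = 1.8e-05). *Shh*, a secreted signal of the gut epithelium whose own locus is altered in the mutants, was the third, with a mean of 481 ± 65.8 in the wild types and 198 ± 22.6 in the mutants (SD, n = 3; log2 change -1.28, edgeR adjusted p = 6.1e-05).

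Among FOXA targets that were not called, *Afp*, a serum protein of fetal liver and yolk sac, had a mean of 2862 ± 374 in the wild types and 2363 ± 138 in the mutants (SD, n = 3). *Ttr*, a carrier of thyroid hormone and retinol, had 1139 ± 142 and 1119 ± 115 (log2 change -0.03, edgeR adjusted p = 0.893). *Cftr*, a chloride channel, had 1125 ± 110.5 in the wild types and 1529 ± 148 in the mutants (log2 change 0.44, edgeR adjusted p = 0.006), and was called higher without wild type 2 (0.52), without mutant 1 (0.52) and with a correction for gene length (0.58). *Muc2*, the main secreted mucin, and *Gcg*, the precursor of glucagon-like peptides, were at or near 0 in all libraries, and *Gcg*, *Tat*, *G6pc*, *Scgb1a1* and *Sftpb* had 0 counts throughout. *Igfbp1* is given here after its values were seen. It had 3.75, 13.1 and 14.3 normalized counts in the wild types and 39.3, 80.9 and 76.3 in the mutants (log2 change 2.65, edgeR adjusted p = 0.0026). It was not called because its mean was under 50. The list thus held genes that fell beside others that were not called. Among the latter, *Igfbp1* and *Cftr* were higher in every mutant library than in any wild type library.

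A list of 24 known HNF4 targets, mostly of lipid handling and the brush border, had 23 tested members. Of these, 6 were called higher, 0 lower and 17 were not called, and the median log2 change was 0.27. *Mttp*, which loads lipid onto apolipoprotein B, had 1626, 1846 and 1845 normalized counts in the wild types and 3352, 2932 and 3285 in the mutants (log2 change 0.85, SE 0.08, edgeR adjusted p = 3.5e-06). *Apoa4*, an apolipoprotein of chylomicrons, rose by 0.93 on the log2 scale, *Fabp2* by 0.84, *Fabp1* by 0.81 and *Alpi* by 0.65. The call of *Alpi* was lost without wild type 2, without mutant 1 and with library size as the only scaling.

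The most abundant HNF4 targets that were not called had small positive log2 changes. *Cdh17*, an intestinal cadherin, had 12738 ± 384 in the wild types and 14019 ± 445 in the mutants (SD, n = 3; log2 change 0.14, edgeR adjusted p = 0.112). *Acaa2* and *Acadl*, enzymes of fatty acid oxidation, had log2 changes of 0.22 and 0.27 and were not called. The rise was therefore found in part of the list, in libraries where *Hnf4a* was not called and *Hnf4g* was at 117% of its wild type level.

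**Figure D5:**
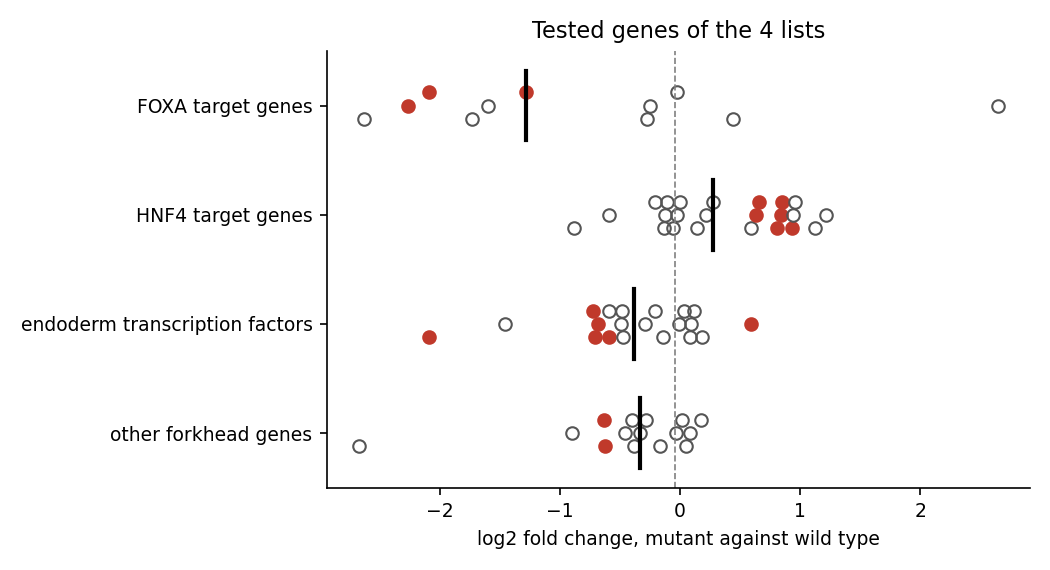
Log2 fold change of the mutant against the wild type libraries (x axis) for each tested gene of the 4 lists (y axis), with filled red points for called genes, open points for others, black bars for list medians and a dashed line for the median of all tested genes. Called FOXA targets lie below 0 and called HNF4 targets above 0.

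Of 23 other transcription factors of the endoderm and its organs, 20 were tested, 5 were called lower, 1 was called higher and 14 were not called, with a median log2 change of -0.39. *Pdx1* showed the largest fall, as given above. *Onecut2*, a cut-homeobox factor of liver and gut, had 2223, 2024 and 1754.5 normalized counts in the wild types and 1189.7, 1378 and 1065 in the mutants (log2 change -0.72, edgeR adjusted p = 2.5e-04). *Sox9*, a progenitor factor, fell by 0.71 on the log2 scale, *Cdx2*, the master factor of intestinal identity, by 0.68 and *Gata5* by 0.59. *Nr1h4*, the bile acid receptor, rose from 1057 ± 129 to 1593 ± 196 (SD, n = 3; log2 change 0.59, edgeR adjusted p = 0.0015). Without wild type 1, 3 of the list were called. The call of *Gata5* was lost there, without wild type 2 and without mutant 3, and those of *Cdx2* and *Nr1h4* were lost without wild type 1, wild type 2, mutant 1 or mutant 2, each left out alone. That of *Nr1h4* was also lost with library size as the only scaling.

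The most abundant of these factors that were not called were *Elf3*, *Isx* and *Klf5*. *Elf3*, an epithelial ETS factor, had 9267 ± 433 in the wild types and 10531 ± 324 in the mutants, *Isx*, an intestinal homeobox factor, 6257 ± 259 and 4473 ± 273, and *Klf5* 5497 ± 903 and 5616 ± 13.6 (SD, n = 3). *Isx* was just under the fold of a call (log2 change -0.48, edgeR adjusted p = 1.8e-04).

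Among 41 other forkhead genes in the files, 13 had 0 counts in all libraries and 15 were tested. Of the tested genes, 2 were called lower and 0 higher, with a median log2 change of -0.33. The largest change of the 15 was that of *Foxp2*, with 62.0 ± 15.4 in the wild types and 9.58 ± 3.08 in the mutants (SD, n = 3; log2 change -2.68, edgeR adjusted p = 0.0012). *Foxp2* was not called because its mean was under 50. *Foxp4* had 872 ± 146 in the wild types and 565 ± 39.2 in the mutants (SD, n = 3; log2 change -0.63, edgeR adjusted p = 0.0032), and *Foxm1*, a factor of mitosis, 493 ± 23.2 and 318 ± 40.2 (log2 change -0.63, edgeR adjusted p = 0.0057). Both calls were lost without wild type 1, without wild type 2, without mutant 2 and with a correction for gene length, and also without mutant 1 for *Foxm1* and without mutant 3 for *Foxp4*. *Foxp1*, which of these genes had the highest count, had 3291 ± 130.3 and 3490 ± 264 and was not called, and neither were *Foxn3* and *Foxq1*, at log2 changes of 0.01 and -0.03. *Foxl1* and *Foxf2*, forkhead genes of the gut mesenchyme, had means under 1 normalized count in both groups. *Foxf1*, also of the mesenchyme, had means of 9.08 in the wild types and 6.10 in the mutants and was not tested.

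Some markers of other cells that express FOXA genes were lower in the mutants, as *Foxa2* was. Of 17 gastric epithelium markers, 12 were tested and 5 were called lower, namely *Nkx6-2*, *Nkx6-3*, *Ctse*, *Cldn18* and *Vsig1*. The other 7 were not called, among them *Pgc*, *Atp4a* and *Gkn1*, the most abundant of these, with log2 changes of -0.51, -0.26 and 0.00. The rest were *Gkn2*, *Gkn3*, *Tff2* and *Anxa10*, at lower counts, with log2 changes of -1.84, -1.75, -1.74 and -1.12. Of these, all but *Anxa10* were lower in every mutant library than in any wild type library. The 17 genes summed to 2671 to 2900 normalized counts in the wild types and 506 to 719 in the mutants, with *Muc6* and *Atp4b* at 0 in all 6. The call of *Nkx6-2* was lost without wild type 2, where its mean was 44.4. The part of these cells in the fall of *Foxa2* was not tested. Of 13 goblet cell markers, 8 were tested and 2 were called lower (*Agr2* and *Fcgbp*), the latter not without wild type 2, mutant 2 or mutant 3. The 6 not called were *Tff3*, *Creb3l1*, *Galnt12*, *Klf4*, *Creb3l4* and *Spdef*. Their log2 changes were -0.25, -0.22, 0.03, -0.38, -0.93 and -1.29. *Spdef* had an edgeR adjusted p of 0.0133 and was called lower under some alternatives, among them DESeq2 (-1.26). The list summed to 2311 to 2568 in the wild types and 1207 to 1558 in the mutants.

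Of 28 enteroendocrine markers, 6 were tested and 2 were called lower, *Rfx6* and *Cpe*, the latter not without wild type 1. The list summed to 3079.6, 3307 and 2079.6 normalized counts in the wild types and to 1081, 1165 and 1211 in the mutants. *Sct*, which encodes secretin, and *Rfx3* were among those not called, with log2 changes of 0.21 and -0.31. *Chgb*, *Neurog3* and *Neurod1* are given here after their values were seen. *Chgb*, which encodes a granule protein, had 432, 1020 and 4 raw counts in the wild types and 0 in each mutant. *Neurog3*, the factor that starts the lineage, had 3, 179 and 90 raw counts in the wild types and 0, 6 and 2 in the mutants. *Neurod1*, a factor that acts after it, had 106, 121 and 60 raw counts in the wild types and 0 in each mutant, and was not called because its mean was under 50. The wild types thus differed widely in *Chgb* and *Neurog3*, whereas *Neurod1* was present in all 3 wild types and at 0 in all 3 mutants. The part of goblet and enteroendocrine cells in the fall of *Foxa2* was not tested.

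The liver list summed to 8884 to 10407 in the wild types and 7289 to 7790 in the mutants, and held 3 genes called lower among 5 tested (*Fgb*, *Serpina1a* and *Serpina1b*). Reads of *Serpina1a* and *Serpina1b* may be shared within their family, so their counts are uncertain and their calls are not independent. The more abundant *Trf*, which encodes transferrin, had a mean of 4472 ± 417 in the wild types and 4932 ± 265 in the mutants (SD, n = 3) and was not called, and neither was *Afp*. *Fgb* was not called without wild type 1, 2 or 3, where its mean was under 50. *Alb* had a mean of 2.18 normalized counts in the wild types and 0 in the mutants, and *Ahsg* was at 0 throughout. The pancreas list summed to 131 to 149 in the wild types and 179 to 197 in the mutants, with *Ptf1a*, *Nkx6-1*, *Ins1* and *Ins2* at 0 in all 6. The mesenchyme list summed to 1330 to 1608 and 1044 to 1478, of which *Vim* made up most, and the blood list to 22.8 to 34.5 and 5.32 to 10.4. *Ptprc* and *Hbb-b1* were at 0 throughout.

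The genes whose profile over the 6 libraries lay closest to that of *Foxa2* were sought among 10564 others with a mean of at least 50, by the root mean square difference of log2 CPM centred on each gene's mean. They were *Pla2g7*, a secreted phospholipase (0.218 on the log2 scale), *Gcnt3*, a mucin glycosyltransferase (0.283), and *Serpina1d*, a protease inhibitor (0.328). *Pla2g7* had 142, 142 and 162 normalized counts in the wild types and 11.4, 36.2 and 12.2 in the mutants, with mutant 2 the highest of the mutants as for *Foxa2*. *Gcnt3* had 182, 260.1 and 208 in the wild types and 20.7, 46.9 and 18.8 in the mutants. Reads of *Serpina1d* may be shared with its close relatives of the same family, so its counts are uncertain. The 6 libraries fall into the 2 groups, so likeness rests mostly on the size of the difference between them.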

How the data were processed

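Raw read counts per gene, not normalized, were deposited by the authors in a table for each of the 6 libraries. cDNA was amplified for 15 PCR cycles (SMARTer v4). The authors mapped reads with STAR 2.5.2b to mm9 and counted uniquely mapping reads with featureCounts 1.5.1 on a UCSC gene model. The strand setting is not given in the sources used here. Amplified reads without molecular identifiers are not independent molecules.

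The test was that of edgeR 4.0.16 under R 4.3.3 (TMM, filterByExpr, quasi-likelihood test on genotype, Benjamini-Hochberg adjustment). TMM factors ran from 1.01 to 1.06 for wild types and from 0.957 to 0.969 for mutants. Normalized counts are scaled to the mean effective library size. The study's minimum, an RPKM of 50, was replaced by a mean normalized count of 50 and kept as an alternative. That alternative called 106 genes higher and 28 lower, far fewer than the study reports under its criteria. The study also gives *Foxa2* as reduced. An RPKM of 50 as computed here is therefore not the study's criterion on a like scale. Other alternatives were DESeq2 1.42.0, RLE or library-size scaling, other filters and thresholds, a loess length correction (span 0.5), blocking on the replicate number and leaving out single libraries. Lengths came from GENCODE vM1 on mm9, for 95.0% of tested genes, and copies were searched with BLAST 2.17.0. Ratios used counts plus 0.5.

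The 5 genes and all lists were chosen with earlier results of these data known. Named from each list were called genes and the 3 most abundant tested genes not called, and for *Foxa2* the 3 nearest profiles. Exceptions are marked in the text, and some list genes are not reported here. Scripts were tested on simulated data. A protein sequence table and the *Hnf4g* promoter were not used here.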

Additional observations from a re-analysis of the deposited data

How the results depend on the processing

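*Foxa2* kept its direction under all 17 alternatives and its call under all but the RPKM of at least 50, a level it does not reach (log2 fold change -2.94). *Foxa1* was called under library size as the only scaling (-0.55), without wild type 1 (-0.52) and with no minimum log2 fold change (-0.44), and *Foxa3* under library size (-0.54) and without wild type 3 (-0.52). With each library left out, the log2 fold change lay between -0.52 and -0.29 for *Foxa1*, between -0.52 and -0.33 for *Foxa3*, between -0.28 and -0.09 for *Hnf4a* and between 0.17 and 0.28 for *Hnf4g*, and the latter pair kept direction and stayed uncalled under all 17. Of the 5 genes, 3 were called under library size, 2 with no minimum fold, 0 at an RPKM of at least 50 and 1 to 2 with each library left out. The ratio of *Foxa1* to *Foxa3* lay between -0.10 (without wild type 1) and 0.0397 (without wild type 3) with each library left out, and was 0.03 without wild type 2, 0.0021 without mutant 1 and 0.03 without mutant 2. The summed FOXA level differed by -0.53 on the log2 scale, between -0.63 and -0.41 under all alternatives, and the summed HNF4 level by 0.15, between 0.05 and 0.21. With the longest transcript as the length, a choice made after seeing the data, the differences were -0.54 and 0.14.

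Over all genes, 1077 were called, 369 at a log2 fold change of at least 1, 1777 with no minimum, 134 at an RPKM of at least 50 and 666 to 1383 with each library left out (666 without wild type 1 and also without wild type 2). The share of calls that were higher was 32.3%, 17.3% under library size and 43.8% with the length correction. At a log2 fold change of at least 1, 0 HNF4 targets, 1 endoderm factor and 0 other forkhead genes were called. At an RPKM of at least 50 it was 0 FOXA targets, 3 HNF4 targets, 0 endoderm factors and 0 other forkhead genes, and the length correction left 0 other forkhead genes. With each library left out, 3 to 6 endoderm factors and 0 to 2 other forkhead genes were called. The RPKM minimum removes genes of low level by construction.

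Libraries share replicate numbers between the groups. Deviations from the group means correlated at 0.00971, -0.0449 and -0.0179 for equal numbers, so no pairing by number was seen. With 3 libraries in each group, these correlations cannot settle whether the libraries were paired. A fit with the replicate block gave a log2 fold change of -3.0 for *Foxa2*, -0.43 for *Foxa1*, -0.42 for *Foxa3*, -0.15 for *Hnf4a* and 0.23 for *Hnf4g*, with 1030 genes called in all, and changed no call among the 5 genes. Depth limits *Foxa2* in the mutants, where 21 to 53 counts were read.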
